A study of Arabidopsis thaliana with 9 samples.

Results

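Storage globulins were followed in germinating Arabidopsis thaliana seeds through 4 of 22746 non-control probe sets of a 1-colour expression array. Probe sets 249082_at and 253767_at were chosen under the name of 12S cruciferins. The platform annotation gave 1 probe set each to the vicilin-like cupin genes PAP85 (258327_at) and AT2G28490 (264079_at). The annotation used here does not list the cruciferin probe sets, so their name could not be checked. They are called by their identifiers and no single cruciferin gene is assigned to them. The 4 genes were chosen on their levels in the 3 genotypes, which were already known. Their levels and differences are therefore a description, given with their error and without a test of their own. Counts of them that passed a threshold, in any fit, support nothing.

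Cruciferins and vicilins are globulins of the cupin fold that a seed lays down in its protein storage vacuoles during maturation. Cruciferins are made as precursors, which a vacuolar processing enzyme cuts in the vacuole, and vicilin-type proteins form a related branch of the same fold. Their genes are switched on in the maturing embryo by B3 and bZIP transcription factors under abscisic acid. During germination the stored proteins are broken down for the seedling, and transcripts left over from maturation are lost.

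The mARF10 seeds carried a transgene of AUXIN RESPONSE FACTOR10, with 3 kb of its own upstream region and 2.3 kb of coding region fused to GFP, in which 4 mutations altered the microRNA160 target site. The ARF10 seeds carried the same fusion with that site intact, and Col-0 seeds were the wild type without a transgene. The labels do not say how many transformed lines were used or whether the plants kept their own ARF10 gene. All seeds were kept on wet filter paper for 3 days at 4 °C in the dark and then for 22 h at 22 °C in the light. Each genotype had 3 arrays from replicates called independent and biological, each made from 3 seed lots.

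Values are log2 signals as deposited, with a base of 2 inferred from their range. The number of arrays limits the precision, and array medians ran from 7.06 to 7.11. Col-0 replicate 2 stood apart over the whole array, at 41.3 on the 1st principal component against -17.3 to 5.87 for the other 8 arrays. Its 4 measured greening genes averaged 8.86, against 9.82 to 10.62 on the other 8 arrays. The 4 storage globulin probe sets did not set this array apart: on each of them it lay between the other Col-0 arrays. In seeds taken whole, fewer cells of a kind and less RNA per cell cannot be told apart.

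Cruciferin probe set 249082_at was at 12.98, 11.46 and 11.91 in mARF10 replicates 1 to 3. It was at 8.48, 9.13 and 7.77 on the ARF10 arrays and at 10.43, 11.42 and 11.57 on the Col-0 arrays. Every mARF10 array and every Col-0 array lay above every ARF10 array, whereas mARF10 and Col-0 arrays overlapped. The means were 12.12 ± 0.78 in mARF10, 8.46 ± 0.68 in ARF10 and 11.14 ± 0.62 in Col-0 seeds (SD, n = 3 each). The log2 difference between mARF10 and ARF10 was 3.66 (limma standard error, SE, 0.46), a 12.6-fold higher signal in mARF10.

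The other cruciferin probe set, 253767_at, was at 13.17, 10.92 and 11.66 in mARF10, at 7.75, 8.53 and 7.24 in ARF10 and at 9.20, 11.11 and 11.28 in Col-0 seeds. It covered the widest range of the 4 probe sets over the 9 arrays, 5.94 log2 units, and mARF10 replicate 1 alone stood more than 1 unit above all other arrays. Its means were 11.92 ± 1.15 in mARF10, 7.84 ± 0.65 in ARF10 and 10.53 ± 1.16 in Col-0 seeds. The difference between mARF10 and ARF10 was 4.08 (SE 0.67), or 16.9-fold.

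PAP85 was at 11.43, 9.65 and 10.55 in mARF10, at 7.29, 7.75 and 6.57 in ARF10 and at 8.14, 10.23 and 10.76 in Col-0 seeds. Col-0 replicate 1 lay closer to the ARF10 arrays than to the other Col-0 arrays, and the gap between it and the highest ARF10 array was 0.39. The Col-0 spread was the widest of the 3 genotypes, with means of 10.54 ± 0.89 in mARF10, 7.20 ± 0.59 in ARF10 and 9.71 ± 1.39 in Col-0 seeds. The 10.1-fold higher signal in mARF10 than in ARF10 was a log2 difference of 3.34 (SE 0.67).

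AT2G28490 was at 10.06, 8.98 and 9.03 in mARF10, at 6.31, 6.95 and 5.69 in ARF10 and at 7.63, 9.09 and 9.70 in Col-0 seeds. One ARF10 array, replicate 3, lay just under the filter on dim probe sets at 5.72, and whether such a dim signal was above background was not assessed. The 2 genotypes with higher signal overlapped again, and both stood clear of ARF10. The difference between mARF10 and ARF10 was 3.04 (SE 0.53), or 8.22-fold, the smallest of the 4.

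**Figure D1:**
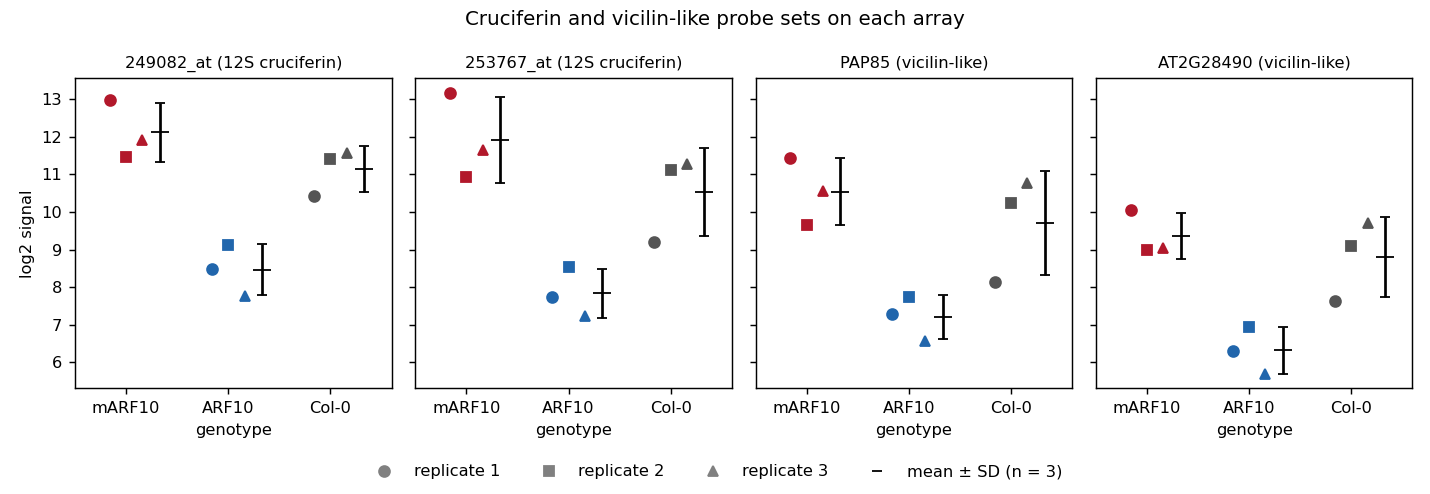
Log2 signal of the 4 storage globulin probe sets (vertical axis) on each array of mARF10, ARF10 and Col-0 seeds (horizontal axis). Symbols are replicates, and the black mark with its bar is the mean ± SD of 3 arrays. In each panel the 3 ARF10 arrays lie below every mARF10 and every Col-0 array, Col-0 replicate 1 is the lowest Col-0 array, and mARF10 overlaps Col-0.

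The 3 genotype means stood in the same order in all 4 probe sets, mARF10 highest, then Col-0, then ARF10. Between mARF10 and ARF10 the differences ran from 3.04 to 4.08 with a median of 3.50, while the median over all 15922 tested probe sets was -0.02. In 4 of 4 every mARF10 array was above every ARF10 array, where 9.58% of tested probe sets were apart in that direction. Sorted by difference, the 4 held places 5, 9, 11 and 14 of 15922 from the top. Both cruciferin probe sets and neither vicilin-like gene passed limma's adjusted threshold of 0.05 over all probe sets, as did 0.314% of tested probe sets in that direction. As these levels chose the probe sets, that count supports nothing. It was 4 without Col-0 replicate 1 or replicate 2, 1 without Col-0 replicate 3 or mARF10 replicate 2, and 0 without any 1 of ARF10 replicates 1 to 3 or mARF10 replicates 1 and 3. Calls over all tested probe sets, in either direction, moved the same way from 65 with all arrays. They were 173 and 267 in the first 2 settings, 51 and 27 in the next 2, and 1 to 10 in the rest. The median difference of the 4 probe sets stayed between 3.06 and 3.88 over these 9 omissions.

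Between mARF10 and Col-0 the mean differences were smaller, at 0.98 (SE 0.46) for 249082_at, 1.39 (SE 0.67) for 253767_at, 0.83 (SE 0.67) for PAP85 and 0.55 (SE 0.53) for AT2G28490. None of the 4 had arrays that stood apart, as 12.4% of tested probe sets did in either direction. In limma 0% of tested probe sets passed, and 1697 of 15922 had an unadjusted p under 0.05. The 2 genotypes were next to each other in the order. Sorted by difference, 253767_at, 249082_at, PAP85 and AT2G28490 held places 13, 40, 68 and 242 of 15922 from the top. Their median was 0.90, against -0.01 over all tested probe sets. The 95% intervals were -0.07 to 2.02 for 249082_at, -0.13 to 2.91 for 253767_at, -0.69 to 2.35 for PAP85 and -0.65 to 1.75 for AT2G28490. With 3 arrays per genotype, these values do not settle whether mARF10 and Col-0 differ in the 4 probe sets. The median of 0.90 became 0.33 without Col-0 replicate 1 and 0.47 without mARF10 replicate 1, and AT2G28490 was at -0.04 without Col-0 replicate 1.

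Between ARF10 and Col-0 the 4 differences were close to each other, at -2.68 (SE 0.46) for 249082_at, -2.69 (SE 0.67) for 253767_at, -2.51 (SE 0.67) for PAP85 and -2.49 (SE 0.53) for AT2G28490. The ARF10 signal was 5.61-fold to 6.45-fold lower than that of Col-0. Every ARF10 array was below every Col-0 array in 4 of 4, where 3.61% of tested probe sets were apart in that direction. The gaps between the highest ARF10 and the lowest Col-0 array ran from 0.39 for PAP85 to 1.31 for 249082_at. They held places 6 to 9 among the 15922 from the most negative difference. Limma called 0% of tested probe sets here, with 739 of 15922 under an unadjusted p of 0.05. The median of -2.59 lay between -3.19 and -2.18 over the 9 omissions. Without Col-0 replicate 1, 1 of the 4 probe sets passed, where 19 of 15922 passed in all. As their levels chose the probe sets, this count too supports nothing. The 3 comparisons share their arrays in pairs and are not independent of each other.

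Within a genotype the storage globulins spread far more than most transcripts. Their residual SD around the genotype means was 0.69 for 249082_at, 0.80 for AT2G28490, 1.01 for PAP85 and 1.01 for 253767_at, against a median of 0.12 over the tested probe sets. From 99.4% to 99.96% of tested probe sets had a smaller one. Genotype means accounted for 88.1% of the variance of 249082_at, 80.7% for 253767_at, 80.5% for AT2G28490 and 74.7% for PAP85. As the probe sets were chosen on their levels in the genotypes, high shares were set in advance and support nothing. The share was not taken over the other tested probe sets.

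The arrays stood in nearly the same order in all 4. The array with the highest signal was mARF10 replicate 1 in each, and the 4 lowest places went to Col-0 replicate 1, then ARF10 replicates 2, 1 and 3 in each. Over the 9 arrays Pearson's r between pairs of the 4 was 0.97 to 0.99 and Spearman's rho 0.92 to 0.98. The points share the genotype means, so r was also taken over deviations from those means, and it was 0.91 to 0.97. Both sets of r are descriptions of probe sets measured on the same arrays.

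Each probe set was centred on its own mean over the 9 arrays to compare how they deviate. The mean deviation of the 4 was 2.42, 0.76 and 1.29 in mARF10 replicates 1 to 3, -2.04, -1.41 and -2.68 in ARF10 and -0.65, 0.97 and 1.33 in Col-0 seeds. The cruciferin pair deviated further than the vicilin-like pair on each array of both transgenic genotypes. The mean deviation of the cruciferin pair minus that of the vicilin-like pair was 0.66, 0.20 and 0.32 in mARF10, -0.37, -0.19 and -0.31 in ARF10 and 0.26, -0.07 and -0.49 in Col-0 seeds. The mARF10 and ARF10 arrays did not overlap in this measure, which was not tested, and Col-0 arrays lay on both sides of 0.

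**Figure D2:**
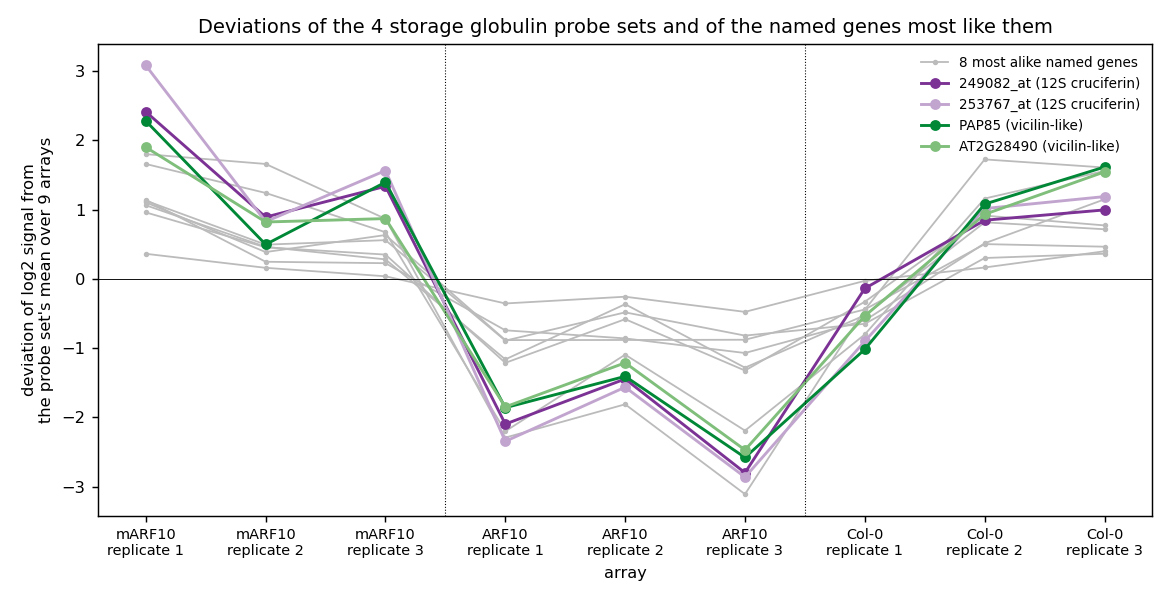
Deviation of the log2 signal from each probe set's own mean over 9 arrays (vertical axis) for the 4 storage globulin probe sets (coloured) and the 8 named genes most like them (grey), by array (horizontal axis). Lines only join the values of 1 probe set, and replicates have no order. The coloured lines stay together, with mean deviations of 2.42 on mARF10 replicate 1 and -2.68 on ARF10 replicate 3 at the ends.

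The named genes with the most similar pattern were found among 8864 genes with a tested probe set, by Pearson's r over the 9 arrays with the mean deviation of the 4 probe sets. The 8 highest r ran from 0.94 to 0.98, and 95% of the genes had an r under 0.59. Among them were the oleosin genes AT2G25890 (r = 0.96, rho = 0.90) and AT3G01570 (r = 0.96, rho = 0.88), whose products coat the oil bodies. Late embryogenesis abundant (LEA) proteins are hydrophilic proteins of the desiccating seed, and 3 genes of this kind were in the group, AT3G53040 (r = 0.97), M10 (r = 0.97) and M17 (r = 0.96). The remaining genes were AT4G31830 (r = 0.98), AT2G33520 (r = 0.95) and AT5G01300 (r = 0.94), and the next gene, SKP2A, missed the limit in the 5th decimal.

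These genes followed the storage globulins with steps of different height. M10 covered 3.86 log2 units over the 9 arrays, with 9.24 ± 0.49 in mARF10, 6.22 ± 0.64 in ARF10 and 8.68 ± 1.26 in Col-0 seeds. AT2G33520 covered only 0.87, with 6.93 ± 0.16 in mARF10, 6.38 ± 0.11 in ARF10 and 6.92 ± 0.21 in Col-0 seeds. AT4G31830 was at 5.77, 5.77 and 5.78 on the ARF10 arrays, close to the filter on dim probe sets. Over deviations from the genotype means, r of the 8 genes was 0.82 to 0.94, where 95% of the genes had an r under 0.705. Ordered by that r, 0 of the 8 stayed among the top 8. By rank the choice was different: ordered by rho, 0 of the 8 stayed among the top 8, though their own rho was 0.87 to 0.93.

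The 4 genes with the most negative r were AT3G56760 (r = -0.94), AT2G25870 (r = -0.93), AT3G54040 (r = -0.93) and AT1G22160 (r = -0.92). Their ranges over the 9 arrays were narrow, at 0.26 to 0.54. AT1G22160 was at 8.21 ± 0.09 in mARF10, 8.53 ± 0.13 in ARF10 and 8.32 ± 0.09 in Col-0 seeds.

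Genes of storage protein life from synthesis to breakdown, and markers of seed tissues, were listed as 92 genes in 13 lists. The annotation named 31 of them and 24 besides PAP85 and AT2G28490 were tested. Between mARF10 and ARF10 limma called 4 of the 24 higher (OLEO3, EEL, M17 and AT3G02480) and 0 lower, where 0.314% of tested probe sets were called higher and 0.0942% lower. The lists were chosen with earlier results of these data known, so this share is a description and supports nothing. The median of the 24 was 0.20. All 4 calls were lost without any 1 of the ARF10 arrays or without mARF10 replicate 1 or 3. Without mARF10 replicate 2 only that of OLEO3 was made, and without Col-0 replicate 3 that of EEL was lost. The count was 7 without Col-0 replicate 1, where AT2G25890, AT3G01570 and AT3G53040 were gained, and 7 without Col-0 replicate 2, where AT3G01570, AT3G53040 and AT4G36700 were gained. Over all tested probe sets 173 and 267 were called in the latter 2 settings, against 65 with all arrays. Where all 4 list calls were lost, 1 to 10 were called. Between mARF10 and Col-0 and between ARF10 and Col-0, 0 of the 24 were called with all arrays. Without mARF10 replicate 2, OLEO3 passed between mARF10 and Col-0 (0.94, limma adjusted p = 0.0281). Without Col-0 replicate 1, M17 (-4.07, limma adjusted p = 0.0194) and AT3G53040 (-1.88, limma adjusted p = 0.0403) passed between ARF10 and Col-0. Over all tested probe sets 5 and 19 passed in these 2 fits. No 2S albumin, repressor of storage genes, endosperm marker or microRNA160 target of the lists was named by the annotation used here. That annotation does not list every measured probe set, so the array may still carry them.

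Other cupin genes did not share the size of the difference. AT4G36700, a further vicilin-like gene, was at 8.67, 7.70 and 7.97 in mARF10, at 6.55, 7.21 and 6.54 in ARF10 and at 6.85, 7.93 and 7.02 in Col-0 seeds. Every mARF10 array was above every ARF10 array, and the difference of 1.35 (SE 0.33) did not pass in limma (adjusted p = 0.168), though it did without Col-0 replicate 2 (0.0318). Its difference from Col-0 was 0.85 in mARF10 and -0.50 in ARF10, and the ARF10 difference was -0.17 without Col-0 replicate 2. AT1G07750 (-0.08, SE 0.08) and AT2G28680 (-0.06, SE 0.11), members of the cupin family, had overlapping arrays between mARF10 and ARF10. AT1G03890, a gene of the 12S globulin family, was dim on all 9 arrays, from 4.84 to 5.34, and was not tested, as was AT2G18540 at 4.24 to 4.45.

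Oil body genes had positive differences between mARF10 and ARF10 in 4 of 4 tested genes, with a median of 1.27, and 1 was called. OLEO3, an oleosin, was at 10.58, 10.11 and 10.51 in mARF10, at 9.37, 9.24 and 9.33 in ARF10 and at 9.71, 9.51 and 9.59 in Col-0 seeds. Its arrays stood apart in every pair of genotypes. It rose by 1.09 (SE 0.12, limma adjusted p = 0.0120), and over the 9 omissions the adjusted p ran from 0.0045 to 0.103, highest without ARF10 replicate 3. The oleosin genes AT2G25890 (1.54), AT3G01570 (1.46) and AT3G18570 (0.60) did not pass, with adjusted p from 0.0697 to 0.285. Without Col-0 replicate 1 the limma adjusted p was 0.0081 for AT3G01570 and 0.0353 for AT2G25890, and without Col-0 replicate 2 it was 0.0248 for AT3G01570.

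In OLEO3 the mARF10 difference from Col-0 was 0.80 (SE 0.12) and the ARF10 difference from Col-0 was -0.29 (SE 0.12). AT3G01570 had 0.72 and -0.74, and AT3G18570 had 0.39 and -0.20. Without Col-0 replicate 1, AT3G01570 had 0.40 and -1.06 and AT3G18570 had 0.26 and -0.34. AT3G18570 also moved with other arrays. Its mARF10 difference was 0.20 without mARF10 replicate 1, and its ARF10 difference was -0.08 without Col-0 replicate 3. AT2G25890, at 0.27 (SE 0.38) and -1.27 (SE 0.38), lay nearer in mARF10 to Col-0, as the storage globulins did. Without Col-0 replicate 1 it had -0.16 and -1.70. None of these passed in limma with all arrays, and the difference in step between genes was not tested.

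Of the listed transcription factors of the maturation programme 2 of 13 were named and tested. EEL, a bZIP factor known to oppose ABI5 at the promoter of a LEA gene, was at 7.37, 6.83 and 7.11 in mARF10, at 6.22, 6.03 and 6.01 in ARF10 and at 6.65, 6.06 and 6.48 in Col-0 seeds. All mARF10 arrays were above all others. EEL rose in mARF10 relative to ARF10 by 1.02 (SE 0.17), just past the threshold in limma (adjusted p = 0.0499). With no filter on dim probe sets the adjusted p was 0.0665, and over the 9 omissions it ran from 0.0074 to 0.248, highest without ARF10 replicate 3. BZIP53, a bZIP factor that binds storage protein promoters, differed by 0.07 (SE 0.08) and its arrays overlapped.

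Genes of sorting and processing gave 0 calls among 6 tested, with 3 positive and 3 negative differences between mARF10 and ARF10 and a median of 0.11. BETA-VPE, the main vacuolar processing enzyme of seed storage globulins, was at 11.63 ± 0.30 in mARF10, 11.38 ± 0.19 in ARF10 and 11.62 ± 0.57 in Col-0 seeds. DELTA-VPE, known from the seed coat, differed by 0.29 (SE 0.12), and the aspartic protease gene AT1G62290 by 0.33 (SE 0.15). GAMMA-VPE, known mainly from vegetative tissue, differed by -0.05 (SE 0.07). In these 4 genes adjusted p ran from 0.413 to 0.828. Of the listed proteases of storage protein breakdown, only the papain-type gene AT4G16190 was named, and it differed by -0.06 (SE 0.20).

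**Figure D3:**
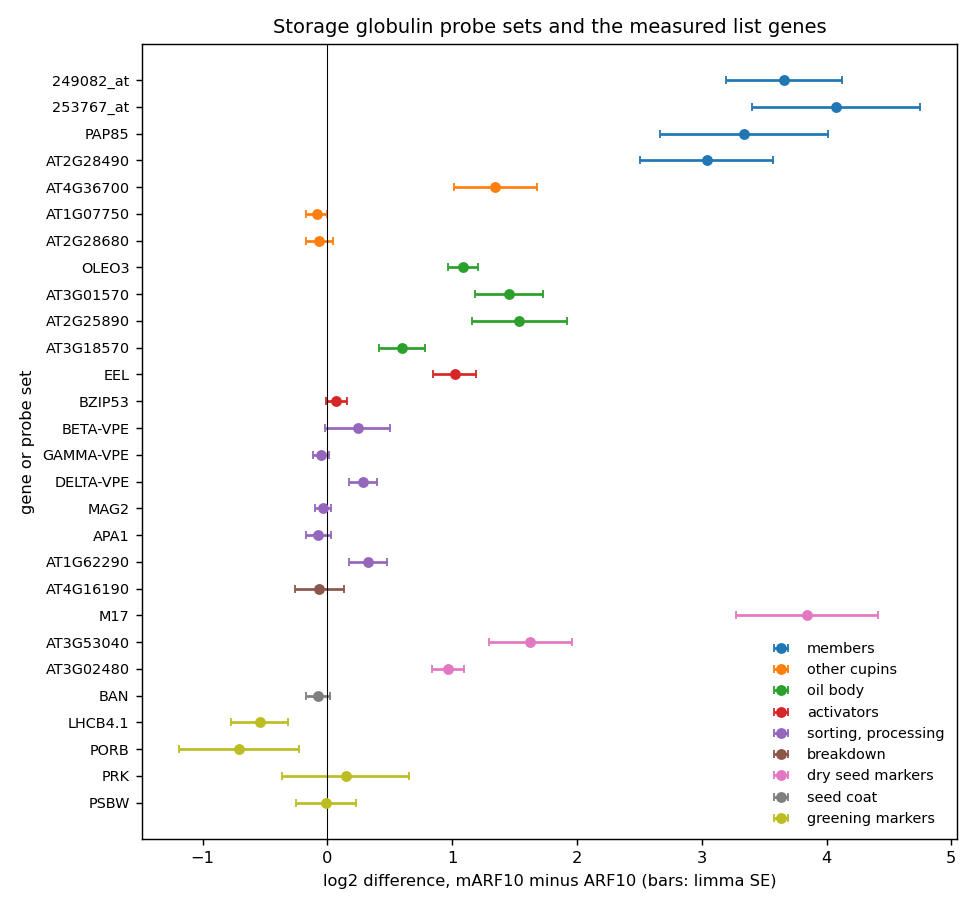
Log2 difference of mARF10 minus ARF10 (horizontal axis, bars show the limma SE) for the 4 storage globulin probe sets and the 24 tested list genes (vertical axis), coloured by list. The legend entry "activators" names the list that holds EEL and BZIP53, although EEL is known to oppose ABI5 at the promoter of a LEA gene. The 4 storage globulins lie between 3.04 and 4.08, and among the other genes only M17 (3.84) lies in that range.

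Of the 6 listed markers of the dry seed 3 were named, and between mARF10 and ARF10 limma called M17 and AT3G02480 higher. Their mean log2 signal was 10.76, 10.58 and 10.17 in mARF10, 8.38, 8.69 and 8.003 in ARF10 and 9.36, 10.56 and 10.32 in Col-0 seeds. In this mean Col-0 replicate 1 was the lowest Col-0 array and every ARF10 array lay below it, as in M17 and AT3G53040 taken singly. AT3G02480 differed in this, with 12.41, 12.20 and 12.19 in ARF10 and 12.62, 12.80 and 12.35 in Col-0 seeds, so that these genotypes overlapped and Col-0 replicate 3 was lowest. Over the 9 arrays r with the storage globulins was 0.96 for M17, 0.97 for AT3G53040 and 0.74 for AT3G02480. M17 was at 9.65 ± 0.50 in mARF10, 5.81 ± 0.66 in ARF10 and 9.17 ± 1.22 in Col-0 seeds, and rose in mARF10 relative to ARF10 by 3.84 (limma adjusted p = 0.0317). Its ARF10 arrays were at 5.92, 6.40 and 5.11, with replicate 3 under the filter on dim probe sets, and whether such signals were above background was not assessed. AT3G02480 rose by 0.97 (adjusted p = 0.0243), and AT3G53040 differed by 1.63 (adjusted p = 0.0941). Over the 9 omissions the adjusted p ran from 0.0032 to 0.176 for M17 and from 0.0061 to 0.156 for AT3G02480, in both highest without ARF10 replicate 3.

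Markers of the greening seedling had a mean of 10.19, 9.82 and 10.55 in mARF10, 10.62, 10.25 and 10.53 in ARF10 and 10.44, 8.86 and 10.11 in Col-0 seeds, from 4 of 6 listed. The 3 genotypes overlapped in this mean. Between mARF10 and ARF10, PORB differed by -0.71, LHCB4.1 by -0.54, PSBW by -0.01 and PRK by 0.15, with 0 calls. LHCB4.1, a chlorophyll-binding antenna protein of photosystem II, was at 10.74, 10.52 and 10.94 in mARF10, at 11.41, 11.06 and 11.36 in ARF10 and at 11.07, 10.15 and 10.94 in Col-0 seeds. Every mARF10 array was below every ARF10 array (adjusted p = 0.430 in limma), and its r with the storage globulins was -0.70. Of the 4 seed coat markers 2 were named, and their mean ran from 5.84 to 6.03 in mARF10, 5.81 to 5.93 in ARF10 and 5.75 to 5.85 in Col-0 seeds. BAN, an enzyme of seed coat flavonoids, differed by -0.08, and DFR was too dim to be tested. Signal ratios between the 3' and 5' ends of GAPDH control transcripts, as log2 differences, ran from 0.14 to 0.60 in mARF10, 0.25 to 0.37 in ARF10 and 0.27 to 0.61 in Col-0 seeds. The part of seed stage, tissue share or RNA quality in the storage globulin levels was not tested.

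**Figure D4:**
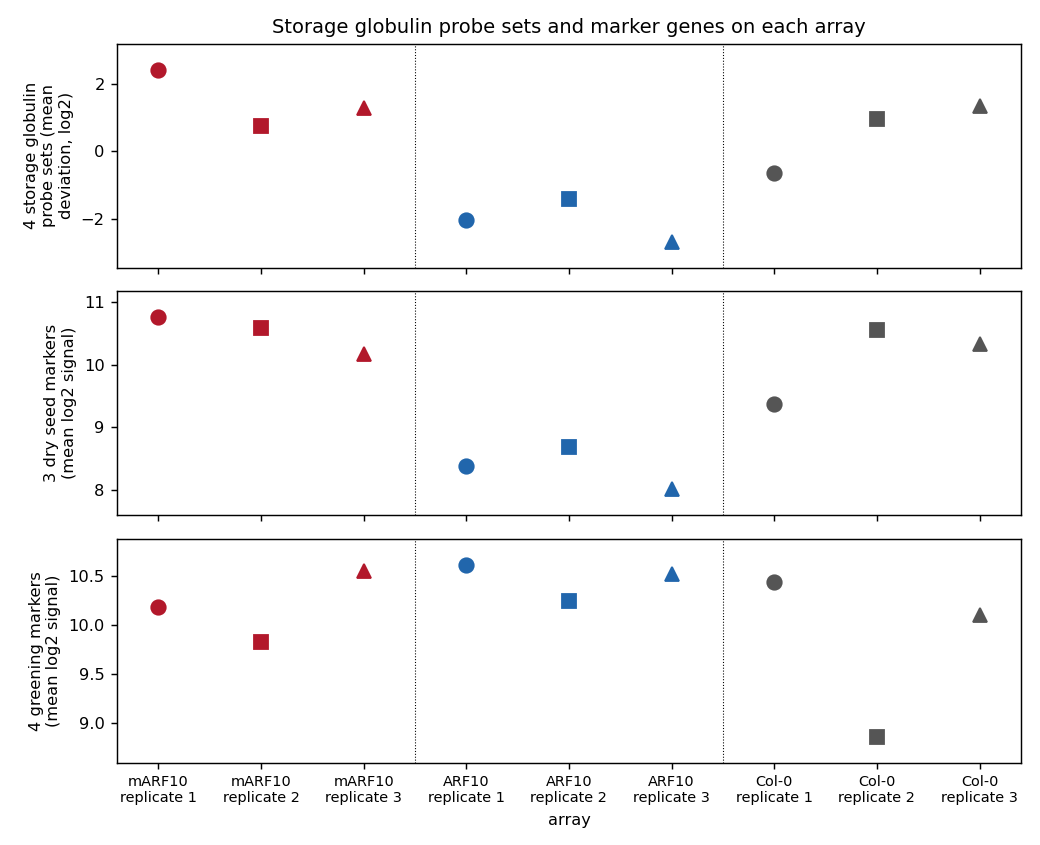
Mean deviation of the 4 storage globulin probe sets, mean log2 signal of 3 dry seed markers and mean log2 signal of 4 greening markers (vertical axes, top to bottom) on each array (horizontal axis, with symbols by replicate and colours by genotype). ARF10 arrays are lowest in the upper and middle panels, where Col-0 replicate 1 is the lowest Col-0 array, and Col-0 replicate 2 is lowest in the bottom panel at 8.86.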

How the data were processed

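Per probe set and array the authors deposited 1 log2 signal. A base of 2 was inferred, since values from 3.70 to 14.78 stay below 16 bits, and how probe sets were summarised and normalized is not given in the sources used here. The 64 control probe sets of 22810 were left out. A filter on dim probe sets, the 30th percentile of their 9-array means (5.72), left 15922 of 22746, all 4 storage globulin probe sets among them. Genotype means were estimated from all 9 arrays together (limma 3.58.1, R 4.3.3), with eBayes and 2-sided Benjamini-Hochberg adjusted p over all tested probe sets (threshold 0.05). The fit was tested on simulated data whose errors were independent between probe sets. That run cannot give the rate of false calls here, where some probe sets deviated together.

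Members and gene lists were chosen with earlier results of these data known. Named are the 4 probe sets, the 8 most and 4 least similar named genes, and per list the called genes and up to 4 with the smallest p. Genes were named through the platform annotation and the gene table of TAIR10.1. Whether cruciferin probes also bind related cruciferin transcripts was not tested. For ARF10 and Col-0, deviations of same-numbered arrays correlated at 0.48, 0.49 and 0.19, and those of unlike number at -0.52 to 0.14. Deviations from a mean of 3 arrays sum to 0, so some matching must fit best. These values therefore cannot decide whether the replicate numbers pair the samples, and the main fit did not pair them.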

Additional observations from a re-analysis of the deposited data

How the results depend on the processing

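Quantile normalization, centring on the array median and a floor at a log2 signal of 5 left the direction of each of the 4 storage globulin differences in the 3 comparisons, and their medians, as reported. Leaving out each array in turn gave 1 to 267 called probe sets between mARF10 and ARF10 (65 with all arrays), 0 to 14 between mARF10 and Col-0 and 0 to 19 between ARF10 and Col-0 (0 with all arrays in both). Between mARF10 and ARF10, arrays of these genotypes alone gave 397, no filter gave 49 and quantile normalization gave 63. Quantile normalization gave 1 between ARF10 and Col-0. As their levels chose them, counts of called storage globulin probe sets support nothing. Between mARF10 and ARF10 the count was 1 with no filter, with quantile normalization or with the replicate block, against 2. It was 4 in the fit of those genotypes alone. That fit also called AT4G36700 (adjusted p = 0.0348), AT3G01570 (0.0047), AT2G25890 (0.0221) and AT3G53040 (0.0071). The cause of these shifts was not tested.

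With the replicate number as a block, 70 probe sets were called between mARF10 and ARF10, and 0 in each of the other comparisons. The block changed no other call reported. Same-numbered arrays correlated in their deviations at -0.08, 0.16 and 0.25 for mARF10 and ARF10 and at -0.17, 0.48 and 0.24 for mARF10 and Col-0. Some arrays of unlike number correlated higher, at up to 0.29 and 0.61. Whether the numbers pair any samples was not settled.

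Differences near 0 changed sign when 1 array was left out. Between mARF10 and Col-0, AT2G28490 ran from -0.041 to 0.998 and AT2G25890 from -0.16 to 0.51. Between mARF10 and ARF10, AT2G28680 ran from -0.14 to 0.0027, AT4G16190 from -0.16 to 0.058, BAN from -0.15 to 0.022, PRK from -0.086 to 0.45 and PSBW from -0.13 to 0.068. Of the 8 most similar genes, 5 stayed among the top 8 without Col-0 replicate 2 and 0 when r was taken over deviations from genotype means. Arrays give no detection calls here, so signals near 5.72 may be background. The alternatives for single list genes and for counts of called list genes or storage globulins, and r over deviations from genotype means, were added after seeing the data.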
